A study of Mus musculus with 14 samples.

Results

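The 10 genes described here, Scin, Swap70, Ipmk, Npnt, Tpbgl, Nckap5, Chst2, Plxnd1, Palld and Hip1, were selected on measured values, namely low p-values on loss of the transcription factor JunB in Tregs of the Peyer's patches (PP) or of the colon. They are 10 of the 55487 genes listed for the inducible line and of the 53801 listed for Foxp3-YFP-cre mice, each was found once in both tables, and all 10 passed the filter on low counts in every comparison. RNA-seq libraries of 14 sorted Treg samples were used, in 3 comparisons of JunB-deficient with heterozygous cells. PP Tregs came from male Foxp3-YFP-cre mice, generally 8 to 12 weeks old, of which 2 were Junb F/+ (HET) and 2 were Junb F/F (KO). CD25- PP Tregs (2 iHET, 2 iKO) and colonic lamina propria Tregs (3 iHET, 3 iKO) came from 10 to 12 week old Foxp3-EGFP-cre-ERT2 Rosa26-tdTomato mice, Junb F/+ or Junb F/F, given 8 mg of tamoxifen by gavage on days 0, 1 and 3 and collected on day 7. In each inducible group, mouse number 1 was a male with 1 copy of the X-linked Cre allele and the other numbers were females with both alleles carrying it.

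All groups, controls included, carried Cre at the Foxp3 locus and at least 1 floxed Junb allele, so each comparison sets loss of both Junb alleles against loss of 1. Foxp3-YFP-cre was found by the study to delete Junb in the germline in some animals. The inducible cells were sorted for both Foxp3 (EGFP) and tdTomato, which marks cells in which Cre was active. Each library is 1 labelled sample, and p-values measure only the spread between these samples. Libraries held 26274861 to 35508709 counts, and 3 counts correspond to 0.0845 to 0.114 CPM, which are counts scaled to a common library size. Junb matched the labels in all libraries, with 4752 and 5329 CPM in PP Tregs of HET mice against 606 and 561 in those of KO mice, 5547 and 4182 in iHET against 891 and 912 in iKO CD25- PP Tregs, and 6865, 8471 and 7514 in iHET against 1012, 993 and 1029 in iKO colonic Tregs. Markers of Tregs (Foxp3, Ctla4, Il2ra and 5 others) were present in every library, with Foxp3 between 59.7 and 155 CPM.

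JunB is a member of the AP-1 family. AP-1 proteins bind DNA as dimers, often at the sequence TGANTCA, and in activated T cells JunB pairs with BATF at sites that also bind IRF4. Tregs restrain other immune cells, and in the intestine they include effector cells that reside in the lamina propria and follicular cells that restrain germinal centers in the PP. The 10 genes have no single function. Scin, Swap70, Palld and Hip1 encode proteins that bind or reorganize actin, Npnt, Plxnd1, Tpbgl and Chst2 encode proteins that are secreted, sit on the cell surface or modify surface sugars, Ipmk encodes a kinase of inositol phosphates, and Nckap5 encodes a large and little studied protein.

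Promoter windows from RefSeq (GRCm38.p6), reaching from 250 bases before to 50 bases after an annotated transcription start, matched all 10 genes with 15 windows of 300 bases. The AP-1 sequence TGANTCA, searched on both strands, was in 1 of the 15 windows, at an internal start of Palld, beside 7.81% of the 32851 promoter windows of all genes. The stretch around it is shown because it holds the single match, with the matching bases, 54 to 48 bases before that start, in capitals (chr8:61591162-61591218, minus strand).
Palld: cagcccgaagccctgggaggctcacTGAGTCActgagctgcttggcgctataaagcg
The related sequence TGACGTCA was in 0 of the 15 windows and in 1.79% of all promoters. A match describes letters in this window and not binding, and the absence of one leaves sites elsewhere unexamined. The number of CpG dinucleotides was above the median of 7 over all promoters in 13 of the 15 windows and ran from 2 to 34. The 15 windows belong to 10 genes that passed the filter on low counts, a filter not applied to all promoters. Nothing particular to the 10 genes is read from this count. The 100 bases before the start of both genes with a higher mean without JunB in each comparison, and of the gene with the widest difference between organs, are shown with CpG in capitals, since their windows held 16, 14 and 32 CpG dinucleotides.
Scin (chr12:40134229-40134328, minus strand): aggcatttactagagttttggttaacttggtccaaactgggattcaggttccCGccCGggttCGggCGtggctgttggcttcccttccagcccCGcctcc
Swap70 (chr7:110221603-110221702, plus strand): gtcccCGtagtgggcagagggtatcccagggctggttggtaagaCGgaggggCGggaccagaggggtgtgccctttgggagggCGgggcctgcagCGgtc
Npnt (chr3:132950292-132950391, minus strand): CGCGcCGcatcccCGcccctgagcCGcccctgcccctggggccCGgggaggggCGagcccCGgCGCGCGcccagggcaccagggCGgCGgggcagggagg

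The contrasts in PP and in colonic Tregs were used to pick the genes, so their values are a description and carry no test here. The rule states no threshold of p, so no genes just outside it can be given. In PP Tregs the 10 genes ranked between 5 and 1623 of 12224 genes by p, and in colonic Tregs between 2 and 80 of 16313. Scin and Swap70 were higher in JunB-deficient cells of both, Ipmk, Npnt, Tpbgl, Nckap5, Chst2, Palld and Hip1 were lower in both, and Plxnd1 was higher in PP and lower in colonic Tregs. In PP Tregs, 5 of the 10 were past an FDR of 0.05 (Scin higher, Ipmk, Npnt, Palld and Hip1 lower), beside 3.35% of all genes tested, 0.990% higher and 2.36% lower. DESeq2 (5.69% of genes) and the exact test of edgeR (5.64%) called Tpbgl and Swap70 as well. Scin stayed higher in KO without any 1 of the 4 libraries (log2 fold change 2.55 to 3.12), in fits that left 1 library in a group. The other 4 calls were lost without HET mouse 1 and without HET mouse 2, those of Ipmk and Hip1 also without KO mouse 1, and that of Npnt also without KO mouse 2, while Swap70 gained one without HET mouse 2. In colonic Tregs, 0 of the 10 were past this FDR in edgeR's quasi-likelihood test, beside 0.00613% of genes, which is Junb alone. In colonic Tregs all 10 passed an unadjusted p of 0.05, beside 3.87% of genes. DESeq2 called 6 of the 10 in colonic Tregs (Nckap5, Ipmk, Tpbgl, Npnt, Chst2, Hip1), beside 0.307% of genes, and the likelihood ratio test of edgeR called 5, without Hip1, beside 0.153%. The genes were picked on the PP and colonic contrasts, so nothing is read in either from the counts of calls or from a call kept, lost or gained. In these bulk samples fewer cells that express a gene and less RNA per cell cannot be told apart.

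**Figure D1:**
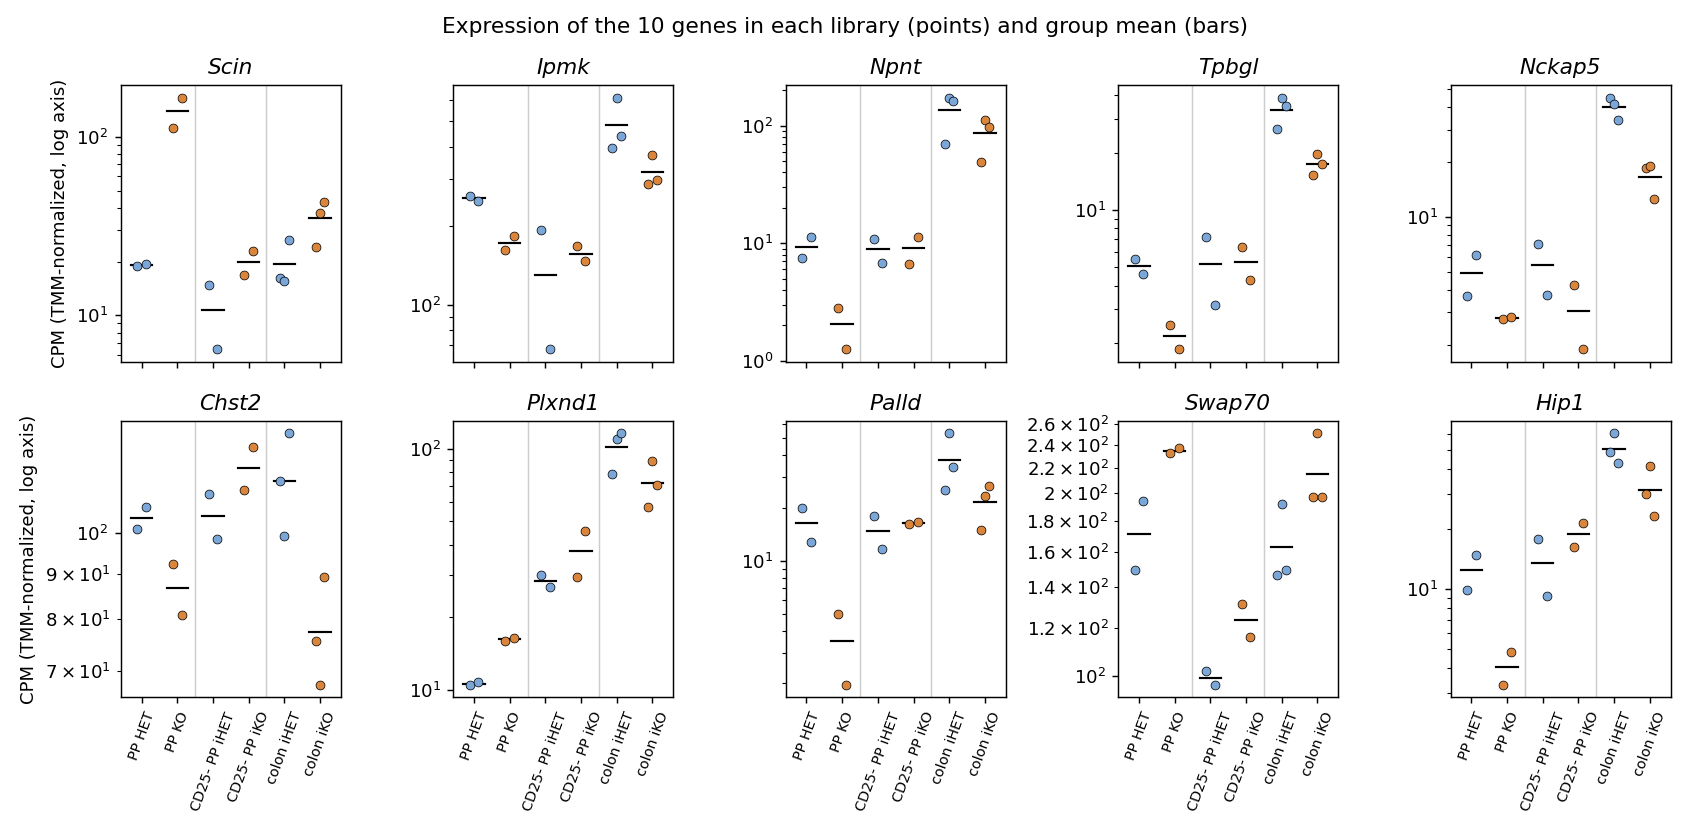
Expression of each of the 10 genes in every library (points, CPM on a log axis) and the group mean (bar), with control groups in blue and JunB-deficient groups in orange. PP, CD25- PP and colonic Tregs are separated by vertical lines, and CPM are comparable among PP groups and among inducible groups only. Scin was higher in PP KO (112 and 166 CPM) than in PP HET libraries (18.8 and 19.5 CPM), and Npnt was higher in colonic (49.3 to 173 CPM) than in CD25- PP libraries (6.69 to 11.4 CPM).

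Among the genes of the actin cytoskeleton, Scin differed most. Scin encodes scinderin, a calcium-dependent protein of the gelsolin superfamily that severs and caps actin filaments (ENSMUSG00000002565.16, GRCm38 chr12:40059769-40134228). It was at 18.8 and 19.5 CPM in PP Tregs of HET mice and at 112 and 166 CPM in those of KO mice. In colonic Tregs it was at 16.2, 15.6 and 26.4 CPM in iHET and at 24.3, 37.5 and 42.9 CPM in iKO mice. The PP groups lay far apart, with a 7.29-fold higher mean in KO (log2 fold change 2.86, SE 0.180). The colonic groups overlapped because iHET mouse 3 was above iKO mouse 1, but within each number the iKO mouse was higher, and the mean was 1.80-fold higher (log2 fold change 0.84, SE 0.190).

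Swap70 encodes a protein that binds actin filaments and acts with the GTPase Rac, and it is a relative of Def6 (ENSMUSG00000031015.8, chr7:110221711-110283506). It was at 149 and 194 CPM in PP Tregs of HET mice and at 233 and 237 CPM in those of KO mice, and at 147, 192 and 150 CPM in iHET and 197, 251 and 197 CPM in iKO colonic Tregs. No group pair overlapped, and the difference was of like size in both, with log2 fold changes of 0.45 (SE 0.119) in PP and 0.40 (SE 0.0902) in colonic Tregs. The exons of Swap70 share 395 bases with Gm45515, and reads in such a stretch are left out by the counter.

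Palld encodes palladin, a scaffold of actin bundles (ENSMUSG00000058056.16, chr8:61511433-61902690). It was at 19.9 and 12.8 CPM in PP Tregs of HET mice and at 4.99 and 1.97 CPM in those of KO mice, and at 25.2, 53.1 and 34.4 CPM in iHET and 14.9, 23.3 and 26.5 CPM in iKO colonic Tregs. The log2 fold change was -2.22 (SE 0.415) in PP Tregs, where the groups were apart, and -0.78 (SE 0.192) in colonic Tregs, where iHET mouse 1 lay below iKO mouse 3. Hip1 encodes an adaptor that links clathrin-coated pits to actin (ENSMUSG00000039959.13, chr5:135406531-135545120). It was at 9.91 and 14.9 CPM in PP Tregs of HET mice and at 3.30 and 4.82 CPM in those of KO mice, and at 48.7, 60.3 and 42.7 CPM in iHET and 30.0, 41.4 and 23.1 CPM in iKO colonic Tregs. Neither pair of groups overlapped for Hip1, with log2 fold changes of -1.60 (SE 0.295) and -0.71 (SE 0.136).

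Of the surface and secreted proteins, Npnt encodes nephronectin, a matrix protein that binds the integrin made of Itga8 and Itgb1 (ENSMUSG00000040998.18, chr3:132881745-132950291). Npnt was at 7.49 and 11.2 CPM in PP Tregs of HET mice and at 2.84 and 1.26 CPM in those of KO mice. In colonic Tregs it was at 70.2, 173 and 162 CPM in iHET and 49.3, 112 and 97.0 CPM in iKO mice. The log2 fold changes were -2.17 (SE 0.411) and -0.63 (SE 0.100). The colonic groups overlapped through the male pair, which was lower than the females in both genotypes, while the ratio within a number was alike, with log2 values of -0.51, -0.63 and -0.74.

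Tpbgl encodes a membrane protein with leucine-rich repeats that resembles trophoblast glycoprotein (ENSMUSG00000096606.2, chr7:99624082-99627103). It was at 5.49 and 4.59 CPM in PP Tregs of HET mice and at 2.48 and 1.86 CPM in those of KO mice, and at 26.5, 39.0 and 35.1 CPM in iHET and 15.2, 19.6 and 17.4 CPM in iKO colonic Tregs. All iKO colonic libraries lay below all iHET ones, with log2 fold changes of -1.21 (SE 0.325) in PP and -0.94 (SE 0.142) in colonic Tregs. Of its 3022 exon bases, 1168 are shared with Gm10605, so its counts come from the rest of the gene.

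Chst2 encodes a sulfotransferase that adds sulfate to N-acetylglucosamine in sugar chains (ENSMUSG00000033350.7, chr9:95399292-95406722). It was at 101 and 107 CPM in PP Tregs of HET mice and at 92.4 and 80.9 CPM in those of KO mice, and at 115, 99.3 and 130 CPM in iHET and 75.7, 67.5 and 89.2 CPM in iKO colonic Tregs. The log2 fold change was -0.26 (SE 0.0941) in PP and -0.57 (SE 0.0933) in colonic Tregs, without overlap of groups in either. Plxnd1 encodes plexin D1, a receptor of semaphorins (ENSMUSG00000030123.15, chr6:115954811-115995005). It was at 10.5 and 10.8 CPM in PP Tregs of HET mice and at 15.9 and 16.5 CPM in those of KO mice, and at 78.8, 110 and 116 CPM in iHET and 57.3, 88.7 and 70.9 CPM in iKO colonic Tregs. Its mean was 1.52-fold that of HET in PP KO Tregs, and 0.712-fold that of iHET in colonic iKO Tregs (log2 fold change -0.50, SE 0.121).

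Ipmk encodes inositol polyphosphate multikinase, which phosphorylates soluble inositol phosphates (ENSMUSG00000060733.13, chr10:71347763-71433327). It was at 260 and 249 CPM in PP Tregs of HET mice and at 162 and 182 CPM in those of KO mice, and at 394, 615 and 438 CPM in iHET and 288, 373 and 298 CPM in iKO colonic Tregs. Its difference was of like size in both, with log2 fold changes of -0.56 (SE 0.0844) and -0.58 (SE 0.103), and the groups were apart. Nckap5, named for its binding to the adaptor NCK (ENSMUSG00000049690.15, chr1:125913620-126830799), was at 3.71 and 6.16 CPM in PP Tregs of HET mice and at 2.76 and 2.82 CPM in those of KO mice. In colonic Tregs it was at 45.1, 41.6 and 34.0 CPM in iHET and 18.5, 18.9 and 12.48 CPM in iKO mice. It ranked next after Junb in colonic Tregs, with a log2 fold change of -1.29 (SE 0.146), and the value in PP Tregs was -0.81 (SE 0.345).

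Counted over the groups, all 10 genes were apart in PP Tregs, 3 above and 7 below, beside 21.8% of all genes above and 21.8% below. In colonic Tregs 6 were apart, 1 above and 5 below, beside 3.81% and 4.49% of genes. Within each of the 3 numbers that pair an iHET with an iKO mouse, 2 genes were higher and 8 were lower every time, beside 12.9% and 14.4% of genes. These counts describe the choice of genes. The median log2 fold change of the 10 was -0.69 in PP and -0.61 in colonic Tregs, beside 0.00298 and 0.00479 over all genes.

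**Figure D2:**
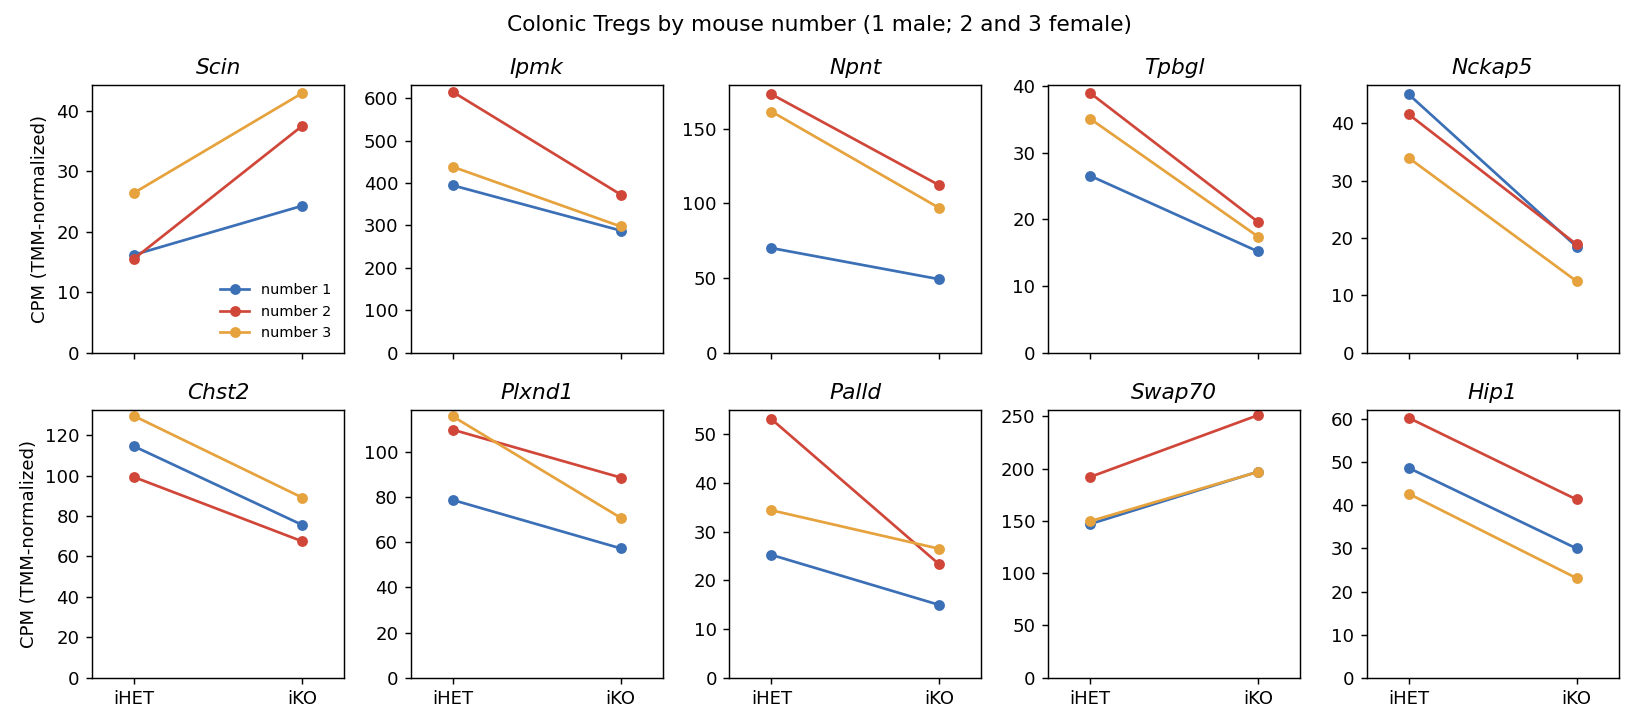
Expression (CPM, linear axis from 0) of the 10 genes in colonic Tregs, with lines joining the iHET and the iKO mouse of the same number (1 male, 2 and 3 female). Every line rises for Scin and Swap70 and falls for the other 8 genes, and Npnt of number 1 lies below both other numbers in each genotype.

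Markers of other cells and of Tregs went with the genotype in PP Tregs. The summed level of 10 markers of intestinal epithelium was 131 to 174 CPM in HET and 51.8 to 57.6 CPM in KO, and 9 of the 10 were lower in both KO libraries, among them Krt8 (12.7 to 17.4 against 0.519 to 0.969 CPM) and Epcam (62.0 to 64.5 against 37.7 to 38.3 CPM). B cell markers summed to 165 to 187 CPM in HET and 93.0 to 138 CPM in KO, with 7 of 8 lower, and those of CD8 and NK cells to 58.3 to 62.4 and 38.5 to 42.5 CPM, with 3 of 6 lower. Myeloid sums overlapped, at 98.5 to 168 and 99.4 to 139 CPM, with 3 of 8 markers lower. Plasma cell sums also overlapped, at 361 to 633 and 345 to 456 CPM, with 1 of 5 markers higher and 1 lower. Stromal and endothelial sums were higher in KO, at 85.1 to 89.8 and 94.8 to 121 CPM, with 1 of 10 markers higher and 1 lower. Most of these sums was the higher marker, Pecam1 (81.5 to 84.8 against 91.3 to 110.5 CPM), so they do not show a shift shared by the list. Markers of Tregs themselves also differed, with 5 of 8 higher in both KO libraries, among them Foxp3 (83.2 to 89.6 against 122 to 124 CPM) and Il2ra (463 to 478 against 683 to 882 CPM), and 1 lower. No marker of these lists was at 0 in all PP libraries, and the part of such cells or of this shift in the higher levels of Scin, Swap70 and Plxnd1 and the lower levels of Npnt, Palld, Hip1, Tpbgl, Nckap5, Ipmk and Chst2 in PP Tregs was not tested. In colonic Tregs, the epithelial sum was 197 to 690 CPM in iHET and 122 to 1161 CPM in iKO. There 0 of the 10 epithelial and 0 of the 8 B cell markers were apart. Of the 8 Treg markers 2 were lower in all iKO libraries, Cd3e (823 to 944 against 785.5 to 813 CPM) and Cd4 (1070 to 1187 against 1022 to 1063 CPM). Of 10 stromal and endothelial markers 1 was higher, Pdgfrb (4.26 to 8.46 against 8.74 to 9.37 CPM). The part of such cells or of this shift in the colonic levels of the 10 genes was not tested.

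CD25- PP Tregs were not used to pick the genes and give a test of JunB loss in other libraries. They differ in gate from both other populations, and from PP Tregs also in mouse line and in induced deletion. The labels do not say whether CD25- PP and colonic cells of the same number came from the same mice. None of the 10 genes passed an FDR of 0.05 there (edgeR's quasi-likelihood test, adjusted p = 0.999 for each), beside 0.00% of 17079 genes. Junb itself, with a log2 fold change of -2.44 (SE 0.173), had an adjusted p of 0.0940 in this test. Since not even Junb passed, the lack of calls cannot tell unchanged genes from changed ones. At an unadjusted p under 0.05, 1 of the 10 (Swap70) and 618 genes (3.62%) passed, and DESeq2 called 35 genes (0.205%) and the exact test of edgeR 43 (0.252%), with 0 of the 10 in either.

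Scin was at 14.8 and 6.47 CPM in iHET and at 16.9 and 22.95 CPM in iKO CD25- PP Tregs. Both iKO libraries were above both iHET libraries, with a log2 fold change of 0.90 (SE 0.395, 95% confidence interval -0.06 to 1.85), and iHET mouse 2 lay furthest from the other libraries. Swap70 was at 102 and 96.7 CPM in iHET and at 132 and 116 CPM in iKO, also apart, with a log2 fold change of 0.31 (SE 0.129, interval 0.00 to 0.62). Chst2 was at 111 and 98.4 CPM in iHET and 112 and 125 CPM in iKO, apart by about 1 CPM between the nearest libraries, with a log2 fold change of 0.17 (SE 0.133, interval -0.15 to 0.49). These 3 genes were above and 0 were below, beside 16.0% and 16.2% of all genes.

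The groups of the other 7 genes overlapped. Ipmk was at 192 and 67.9 CPM in iHET and 167 and 147 CPM in iKO (log2 fold change 0.26, interval -0.78 to 1.31). Nckap5, at 7.15 and 3.74 CPM in iHET and 4.23 and 1.89 CPM in iKO, was the only 1 of the 10 with a negative value (-0.82, interval -2.04 to 0.39). All 10 genes were lower in iHET mouse 2 than in iHET mouse 1, with the widest ratio for Ipmk. The share of all genes with this order was not computed, so nothing is read from the count. Mouse 1 was a male with 1 Cre copy and mouse 2 a female with both alleles carrying it. Sex and Cre copies therefore cannot be told apart from other differences between these mice. Without iHET mouse 1 the log2 fold change of Ipmk was 1.21. In the remaining 5 genes at least 1 iHET library lay within the range of the iKO libraries or above it. Npnt was at 10.9 and 6.85 CPM in iHET and 6.69 and 11.4 CPM in iKO (0.02, interval -0.84 to 0.88), Tpbgl at 7.22 and 3.15 against 6.35 and 4.30 CPM (0.03, interval -1.06 to 1.13), and Palld at 18.0 and 11.7 against 16.2 and 16.7 CPM (0.15, interval -0.45 to 0.74). Hip1 was at 17.8 and 9.17 against 16.2 and 21.5 CPM (0.47, interval -0.34 to 1.29) and Plxnd1 at 30.0 and 26.7 against 29.5 and 45.7 CPM (0.40, interval -0.17 to 0.97). The median of the 10 was 0.22, beside -0.00227 over all genes.

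Set beside each other, the values of Scin and Swap70 were positive in all 3 populations and that of Nckap5 was negative in all 3. The colonic log2 fold changes of Scin, Swap70, Ipmk, Npnt, Tpbgl and Nckap5 lay within their intervals of CD25- PP Tregs, and those of Chst2, Plxnd1, Palld and Hip1 lay below them. The difference between populations was not tested, since the colonic values were used to pick the genes. Epithelial markers summed to 164 to 362 CPM in iHET and 129 to 146 CPM in iKO CD25- PP Tregs, with 4 of 10 lower in both iKO libraries, and 4 of 8 B cell markers were higher, with sums of 79.0 to 91.0 and 89.1 to 109 CPM. Of 8 Treg markers 2 were higher and 1 was lower, of 5 plasma cell markers 2 were higher, and of 8 myeloid markers 1 was higher and 1 lower. Of 6 CD8 and NK cell markers 1 was higher, and of 10 stromal and endothelial markers 1 was lower. The part of such cells or of this shift in these values was not tested.

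**Figure D3:**
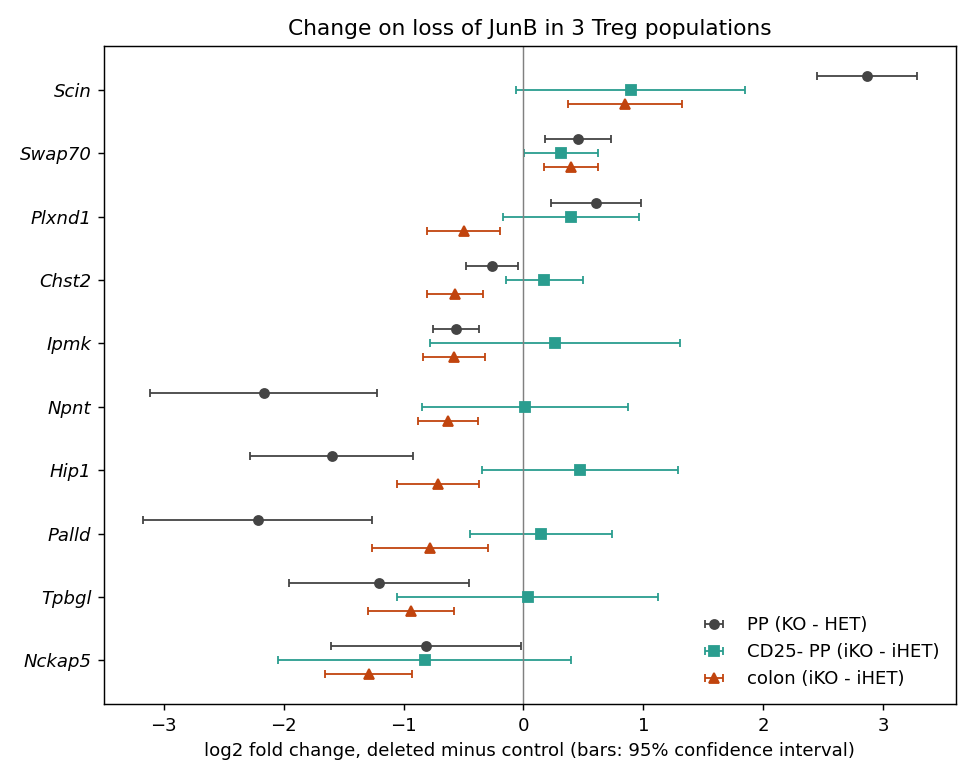
Log2 fold change of JunB-deficient against control cells (points) with 95% confidence intervals (bars) for the 10 genes in PP (circles), CD25- PP (squares) and colonic Tregs (triangles). Scin and Swap70 lie to the right of 0 in all 3 populations, and the CD25- PP intervals of 9 of the 10 genes include 0, that of Nckap5 running from -2.04 to 0.39.

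The comparison of colonic with CD25- PP Tregs, over the 10 libraries of the inducible line with genotype as a term, is another contrast than those used for the choice. In it 8 of the 10 genes were higher in colonic Tregs at an FDR of 0.05 (edgeR's quasi-likelihood test) and 0 were lower, beside 18.0% of 18626 genes called, 10.2% higher and 7.73% lower. The median log2 difference of the 10 was 1.34, beside -0.00415 over all genes. A choice by low p-values in colonic Tregs favours genes with many colonic reads, so the count is not independent of the choice. The colonic cells were sorted without the CD25- gate, so organ and gate cannot be told apart. Whether same-numbered cells of both organs came from the same mice is not given, and libraries were treated as separate.

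Npnt differed most. Its levels were 6.69 to 11.4 CPM with a median of 8.87 in the 4 CD25- PP libraries and 49.3 to 173 CPM with a median of 105 in the 6 colonic libraries, a 12.4-fold higher mean (log2 difference 3.58, SE 0.368, adjusted p = 0.000191). Nckap5 ran from 1.89 to 7.15 CPM (median 3.98) and from 12.48 to 45.1 CPM (median 26.4), a log2 difference of 2.65 (SE 0.281, adjusted p = 0.000209). Tpbgl ran from 3.15 to 7.22 CPM (median 5.33) and from 15.2 to 39.0 CPM (median 23.1), a log2 difference of 2.18 (SE 0.292, adjusted p = 0.000814). For these 3 genes the lowest colonic library, an iKO library each time, was above the highest CD25- PP library.

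Ipmk, Plxnd1, Hip1 and Swap70 were also apart. The log2 differences were 1.45 for Ipmk (SE 0.290, adjusted p = 0.00672), 1.38 for Plxnd1 (SE 0.225, adjusted p = 0.00240), 1.30 for Hip1 (SE 0.292, adjusted p = 0.0121) and 0.75 for Swap70 (SE 0.111, adjusted p = 0.00137). In all, 7 genes had every colonic library above every CD25- PP library and 0 had the reverse, beside 9.05% and 7.37% of genes. The groups of Scin overlapped, at 6.47 to 22.95 and 15.6 to 42.9 CPM, and its log2 difference of 0.84 (SE 0.263, adjusted p = 0.0491) lost its call with the replicate block (0.61, adjusted p = 0.154) and with DESeq2 size factors (0.83, adjusted p = 0.0511). It also lost it without colonic iHET mouse 2 or 3, colonic iKO mouse 2 or 3, CD25- PP iHET mouse 2 or CD25- PP iKO mouse 1 or 2 (0.65 to 0.94, adjusted p = 0.0594 to 0.129). Palld, at 11.7 to 18.0 and 14.9 to 53.1 CPM, differed by 0.85 (SE 0.278, adjusted p = 0.0566, interval 0.24 to 1.46), and was called without colonic iHET mouse 1 (0.90, adjusted p = 0.0485) or colonic iKO mouse 1 (0.99, adjusted p = 0.0280). Palld was also called with DESeq2 (adjusted p = 0.0120), with no filter on low counts (0.00116) and with at least 10 counts in every library (0.0455). Chst2, at 98.4 to 125 and 67.5 to 130 CPM, differed by -0.25 (SE 0.155, adjusted p = 0.287, interval -0.59 to 0.09). With iHET libraries alone 5 of the 10 were called, beside 2.49% of genes, and the calls of Scin, Ipmk and Swap70 were lost.

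**Figure D4:**
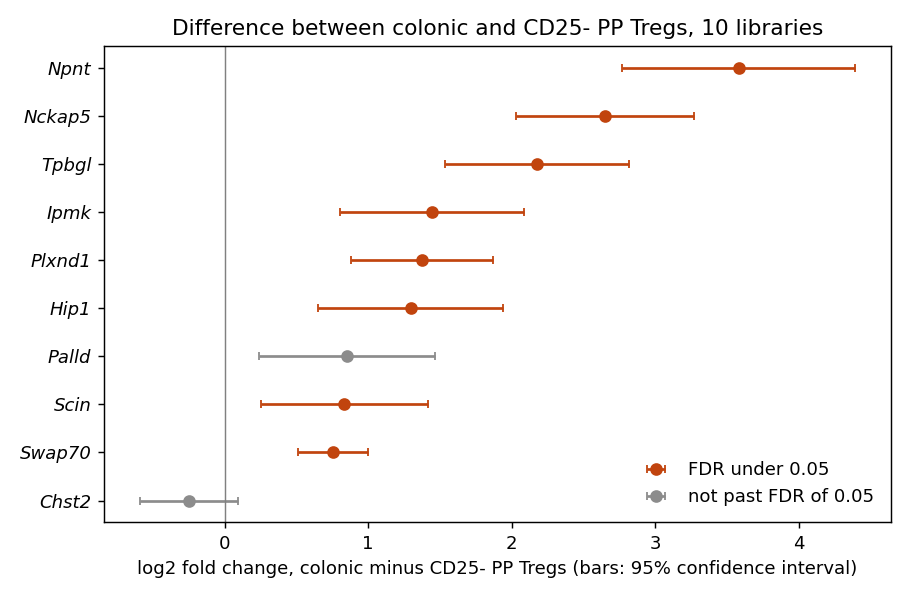
Log2 difference between colonic and CD25- PP Tregs (points) with 95% confidence intervals (bars) for the 10 genes over 10 libraries, in color where the FDR was under 0.05 and in grey where it was not. Npnt lies highest at 3.58, Scin and Palld lie close to each other on either side of the threshold, and Chst2 lies at -0.25.

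Markers of other cells also differed between these populations. Stromal and endothelial markers summed to 105 to 165 CPM in CD25- PP and 173 to 999 CPM in colonic libraries, plasma cell markers to 221 to 353 and 459 to 1499 CPM, and myeloid markers to 58.0 to 102 and 99.4 to 285 CPM. Epithelial sums overlapped, at 129 to 362 and 122 to 1161 CPM, and so did those of B cells, at 79.0 to 109 and 57.3 to 124 CPM. CD8 and NK cell markers were lower in colonic libraries, with sums of 33.1 to 52.9 CPM in CD25- PP and 14.4 to 25.3 CPM in colonic ones. The myeloid marker Fcgr1 was at 0 in all 4 CD25- PP libraries and at 0.0599 to 0.689 CPM in colonic libraries. The myeloid marker Adgre1 overlapped, at 41.3 to 56.0 and 45.2 to 57.0 CPM. The part of such cells in the higher colonic levels of Npnt, Nckap5, Tpbgl, Ipmk, Plxnd1, Hip1, Swap70 and Scin was not tested.

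The number of the mouse in colonic Tregs, a term chosen for reading after its values were seen, called no gene at an FDR of 0.05. For Npnt the log2 difference was 1.24 between number 2 and number 1 and 1.09 between number 3 and number 1, with an adjusted p of 0.481 in edgeR's quasi-likelihood test, and 0.00% of genes were called by number. The adjusted p of the other 9 genes was between 0.600 and 0.608. Unadjusted p-values of this test ran from 0.000236 for Npnt to 0.0999 for Tpbgl. Among the other 9 genes the widest log2 difference was 0.87, for Palld between number 2 and number 1. The share of all genes with such p-values was not computed. Number 1 is male with 1 Cre copy and the others are female with both, so sex, Cre copies and cage cannot be told apart.

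Levels between genes were compared per length, as RPKM, which are CPM per kilobase of exon. Ipmk was the highest of the 10 in PP HET (35.9 ± 1.11 RPKM, SD, n = 2), in CD25- PP iHET (18.3 ± 12.4, n = 2) and in colonic iHET cells (68.0 ± 16.4, n = 3), and Nckap5 was the lowest in each (0.408 ± 0.143, 0.450 ± 0.200 and 3.32 ± 0.468 RPKM), although in colonic iHET cells its libraries overlapped with those of Palld and Hip1. In PP HET cells Ipmk was followed by Swap70, Chst2 and Scin without overlap, and then by Npnt, Palld and Plxnd1, whose neighbours overlapped. Tpbgl is given no place in these orders, since RPKM were scaled to all exon bases, including those shared with Gm10605, and understate it. In PP KO cells Scin was the highest, at 46.5 ± 12.7 RPKM (n = 2) against 6.37 ± 0.163 in HET. In CD25- PP iHET cells Ipmk overlapped with Chst2, and in CD25- PP iKO cells Ipmk (22.1 ± 2.03 RPKM) was above Chst2 (16.2 ± 1.29), which overlapped with Swap70. In colonic iHET cells Npnt came next after Ipmk (26.9 ± 11.2 RPKM) and overlapped with Swap70 (20.1 ± 3.12), and in colonic iKO cells the order was Ipmk (45.0 ± 6.55), Swap70 (26.6 ± 3.86) and Npnt (17.1 ± 6.53).

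For each of the 10, the gene with the most similar pattern was found among 11738 genes tested in all 3 comparisons, by Pearson's r of log2 CPM over the 14 libraries after the mean of each population was subtracted. These libraries share genotypes, numbers and tables, and with 11738 candidates the best r is high by construction. The closest were Inf2 for Scin (r = 0.909), Utf1 for Swap70 (0.932), Muc13 for Palld (0.943), Kif13a for Hip1 (0.909) and Stap1 for Npnt (0.932). For the others they were Nsmaf for Tpbgl (0.915), Gfra4 for Chst2 (0.894), Slc39a1 for Plxnd1 (0.909), Mvb12b for Ipmk (0.936) and Tnip2 for Nckap5 (0.894).

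Relatives and partners of the 10 genes were read from 9 lists with 131 genes, among them the gelsolin superfamily, inositol phosphate kinases, RGD-binding integrins, semaphorins and plexins, and clathrin adaptors. In PP Tregs 89 were tested, and 4 were called by edgeR's quasi-likelihood test, beside 3.35% of all genes. The share of relatives called was near that of all genes, so nothing about the lists is read from it. The integrin subunit Itgb8 fell from 117 and 138 to 68.9 and 69.4 CPM (log2 fold change -0.88, adjusted p = 0.00531). Plxnb2, a plexin like Plxnd1, fell from 15.7 and 15.8 to 7.68 and 9.01 CPM (-0.92, adjusted p = 0.0370), opposite in sign to Plxnd1. Eps8, which caps and bundles actin, fell from 1.97 and 1.79 to 0.431 and 0.260 CPM (-2.33, adjusted p = 0.0408), next to the lower epithelial sums given above. Itpk1, an inositol phosphate kinase like Ipmk, rose from 110 and 96.3 to 138 and 142 CPM (0.44, adjusted p = 0.0380). Without HET mouse 1, HET mouse 2 or KO mouse 2 the count was 1 each time.

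In CD25- PP and in colonic Tregs 0 of 111 and 0 of 110 relatives were called, while 6 and 8 had an unadjusted p under 0.05 and DESeq2 called 1 and 0. Without iHET mouse 2 the count in CD25- PP Tregs was 1. The median log2 fold change of the lists was 0.04 in PP, -0.05 in CD25- PP and -0.04 in colonic Tregs. In PP Tregs the median of a list ran from -0.08 in the gelsolin superfamily to 0.22 in the NCK adaptors and paralogs. Between colonic and CD25- PP Tregs, 37 of 117 relatives were called, 23 higher and 14 lower in colonic cells, beside 10.2% and 7.73% of all genes. With iHET libraries alone 8 were called, beside 2.49% of all genes. In the fit of both genotypes, all 7 of the gelsolin superfamily other than Scin had a positive value, of which 4 were called. Of the 28 semaphorins, plexins and neuropilins tested in it, 4 were called higher and 5 lower.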

How the data were processed

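The files hold whole-number counts of reads per gene, deposited without normalization or filter. The authors trimmed reads with Trim Galore, aligned them to mm10 (GRCm38) with STAR, kept uniquely mapped reads and assigned them with featureCounts at default settings, which ignore strand and leave out reads on more than 1 gene. For tamoxifen-treated mice, sequenced paired-end, only the forward read was used. The kit amplifies low amounts of RNA. Symbols and positions came from GENCODE M21, matched by gene ID for 55394 of 55487 and 53620 of 53801 IDs.

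Genes that reached 1 CPM in 2 or more libraries (3 in colonic Tregs) were tested with edgeR 4.0.16 (quasi-likelihood, TMM, prior count 1, FDR 0.05 by Benjamini-Hochberg) in R 4.3.3. The fit of colonic Tregs had the mouse number as cage, after the study's methods, which describe 1 iHET and 1 iKO mouse per cage. That the number is the cage is an assumption. Deviations of same-numbered libraries from their group means correlated at 0.0982 in PP, 0.101 in CD25- PP and 0.0622, 0.293 and -0.0885 in colonic Tregs. CPM are TMM-normalized within each table, so levels of Foxp3-YFP-cre mice are not compared with those of the inducible line. Floors of 3 counts cover counting error only, since reads carry no molecular identifiers. Tests were tried on simulated data that held no cage effect, and no result here rests on that trial. Plots used matplotlib 3.10.9. Alternatives were DESeq2 1.42.0, other normalizations, filters and prior counts, the tests of the study, the replicate block and leaving out each library.

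The 10 genes, the lists of relatives and markers, and the tests were chosen with earlier results of these data known. The genes named are these 10, Junb, the closest gene to each, relatives called in a genotype comparison, and markers beside a result. Constitutive HET and KO cells were sorted with a gate narrower than all Tregs, which is not reported here in full.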

Additional observations from a re-analysis of the deposited data

Results flagged for a closer look

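In 2 genes the libraries, or in colonic Tregs the mice of each number, lay on opposite sides of their controls in different populations. The difference itself was not tested, and the PP and colonic values were used to pick the genes. Chst2 of JunB-deficient cells was at 0.834 of the control mean in PP Tregs and 0.677 in colonic Tregs, but at 1.13 in CD25- PP Tregs. That last value did not pass its test (log2 fold change 0.17, 95% interval -0.15 to 0.49), and the libraries of number 1 differed by a log2 ratio of 0.013. Plxnd1 was at 1.52 of the control mean in PP Tregs and at 0.712 in colonic Tregs.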

How the results depend on the processing

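The number of genes called moved with the test. In PP Tregs, 409 genes were called, against 696 with DESeq2, 1305 with no filter on low counts, 689 with the exact test and 54 to 313 without 1 library. In CD25- PP Tregs 0 were called, against 35 with DESeq2, 232 with no filter, 43 with the exact test, 1 with at least 10 counts in every library, 1 with all 10 libraries in the fit and 0 to 128 without 1 library. In colonic Tregs 1 was called, against 50 with DESeq2, 24 with no filter, 25 with the likelihood ratio test and 0 to 8 without 1 library. Between colonic and CD25- PP Tregs 3345 were called, against 430 with iHET libraries alone and 2075 to 4050 without 1 library. The replicate block gave 1015 genes in PP, 0 in CD25- PP and 2530 between organs, and without the block 1 gene was called in colonic Tregs. It ended the call of Scin between organs and changed no other call of the 10 genes there or in CD25- PP Tregs. In PP Tregs Tpbgl, Swap70 and Plxnd1 joined the 5 called, where the block called 1015 genes in all. The genes were picked on that contrast, so nothing is read from these calls. The cause of these shifts was not tested.

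In CD25- PP Tregs 1 of the 10 genes was called with no filter (Scin, adjusted p = 0.0464 in edgeR's quasi-likelihood test). The number of all genes called also rose in that setting, as given above, so nothing is read from this call. Without iHET mouse 1 the log2 fold change of Ipmk was 1.21, with iHET mouse 2 as the only control. In CD25- PP Tregs the sign turned for Ipmk (-0.31 to 1.21 without 1 library), Npnt (-0.40 to 0.40, and -0.000144 with upper-quartile normalization), Tpbgl (-0.45 to 0.76) and Palld (-0.14 to 0.50). Between organs 8 of the 10 were called, 5 with iHET libraries alone, where Chst2 turned to 0.13. Of the values of the 10 genes there, 162 kept direction and side of the threshold, and 12 lost and 5 gained a call. In PP Tregs 115 values moved by less than the spread between mice and 5 by more (Scin to 2.55 without KO mouse 2, Npnt to -2.85 and Palld to -3.03 without KO mouse 1, Nckap5 to -0.40 and Swap70 to 0.66 without HET mouse 2), and in colonic Tregs all 150 moved by less. The 4 relatives called in PP Tregs became 10 with DESeq2, 16 with no filter, 11 with the exact test and 13 with the replicate block. Each of the 10 genes had at least 34 counts in every library.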
